A study of Homo sapiens with 24 samples.

Results

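The comparison described here asked what ABBV-744 at 500 nM changed in HepG2 cells that also received interferon gamma (IFNg). Its libraries were chosen by title: the 3 libraries of IFNg with ABBV-744 at 500 nM, called the combination libraries below, and the 3 libraries of IFNg alone, which are 6 of the 24 libraries in the series. The series sequenced RNA of HepG2, an established human liver cancer cell line with many features of hepatocytes, in 8 groups of 3 libraries. Besides these 2 groups, the values below use the DMSO (solvent) libraries, ABBV-744 at 500 nM without IFNg, IFNg with ABBV-744 at 50 nM, and the inhibitor ABBV-075 at 50 nM with IFNg and, for the GC trend only, without it. The figure of that trend shows all 24 libraries. All cells grew in the same serum-containing medium. The study gives treatment times only for the groups it reports, DMSO and ABBV-075 without IFNg among those used here. For the groups with ABBV-744 or IFNg, the time of treatment and the dose of IFNg are not given in the sources used here. The study states ribosomal RNA depletion and a directional kit only for the libraries it reports, which do not include the 2 groups compared here. Between 98.3% and 98.4% of the gene reads in these groups were on the strand of the gene. The study calls the samples of the groups it reports, DMSO among them, independent, but neither it nor the labels say so of the 2 groups compared here, so the spread between their replicates may be only technical.

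BET proteins read acetylated lysines on histones with paired bromodomains and help to release paused RNA polymerase II through the kinase P-TEFb. ABBV-744 binds preferentially the second bromodomain, whereas ABBV-075 binds both. IFNg acts through its receptor, the kinases JAK1 and JAK2 and factors that bind GAS elements (IFNg-activated sites), and induces IRF1, antigen-presentation genes and guanylate-binding proteins, in hepatocytes as in most other cells.

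The IFNg libraries held 3718686, 3461565 and 3623791 reads on genes, and the combination libraries 2978982, 3351275 and 3305250. All combination libraries were shallower than all IFNg libraries, and counts were scaled for depth. Levels are given in CPM, the counts of a gene per 1000000 reads on genes after TMM scaling, in which the libraries are adjusted so that most genes do not differ. Each log2 change is the combination minus IFNg, ± its standard error from a fit over 3 + 3 libraries. A gene "rose" or "fell" where the p of edgeR's quasi-likelihood test, adjusted by Benjamini-Hochberg for all genes tested, did not exceed 0.05, and a gene is past both thresholds if its log2 change is also at least 1.5 in size. The HepG2 label was checked on 12 hepatocyte and epithelial markers, all of them detected, and their summed level was 24440, 24810 and 22900 CPM in the IFNg and 29690, 26160 and 23810 CPM in the combination libraries. APOB, the gene of apolipoprotein B, carried the difference: without it the sums were 18620, 18280 and 17600 CPM and 16280, 15920 and 15480 CPM, lower in the combination. Of 15 markers of blood, stromal, endothelial, basal and biliary cells, 10 or 11 had 3 counts or fewer in each of the 6 libraries, and PTPRC, CD3E, HBB, COL1A2, COL3A1 and KRT5 were at 0 in all 6. The sum of these markers was 2082, 1905 and 2068 CPM with IFNg and 1845, 1857 and 1765 CPM in the combination, most of it LYZ, the gene of lysozyme (1816, 1592 and 1759 against 1627, 1637 and 1526 CPM). The biliary markers KRT19 and EPCAM and the stromal marker ACTA2 were also detected. In bulk RNA, fewer cells of a type and less RNA per cell cannot be told apart.

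With IFNg present, 500 nM ABBV-744 raised DHRS2, a mitochondrial short-chain dehydrogenase/reductase, and lowered many transcripts of secreted liver proteins, among them VTN (vitronectin) and SERPIND1 (heparin cofactor II, a thrombin inhibitor). DHRS2 was at 2294, 2356 and 2299.9 CPM in the IFNg libraries and at 7972, 7991 and 8319 CPM in the combination libraries. Its fitted difference was 3.44-fold. VTN was at 89.9, 94 and 100.3 CPM with IFNg and at 27.4, 18.3 and 20.6 CPM in the combination. SERPIND1 went from 343, 347 and 322 CPM to 128, 120.4 and 107 CPM. For none of these 3 genes did the libraries of the 2 groups overlap, which also held for 5769 (52%) of all genes tested and is therefore common here. The same share applies wherever these 2 groups are said below not to overlap or to lie apart. The log2 changes were 1.78 ± 0.08 for DHRS2 (adjusted p = 2.08e-16), -2.13 ± 0.13 for VTN (adjusted p = 1.31e-13) and -1.54 ± 0.09 for SERPIND1 (adjusted p = 5.29e-14).

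The same dose without IFNg left a different pattern among the 3 genes. DHRS2 stood at 2222, 2133 and 2095 CPM with DMSO and at 9903, 10911 and 10441 CPM with ABBV-744 alone, so that its libraries with the inhibitor were highest where IFNg was absent. VTN was at 102, 104 and 129 CPM with DMSO and at 91.4, 102 and 84.5 CPM with ABBV-744 alone, and all combination libraries lay below them. Its change without IFNg was -0.27 ± 0.11 (adjusted p = 0.0958) and -0.41 ± 0.09 GC corrected (adjusted p = 0.00186), in the correction for base composition described below. SERPIND1 fell from 300.05, 323 and 306 to 223, 191 and 223 CPM without IFNg, less far than with it. The effect with IFNg minus the effect without it (the interaction, tested over 12 libraries) was -1.84 ± 0.18 for VTN (adjusted p = 8.65e-09), -0.98 ± 0.13 for SERPIND1 (adjusted p = 4.46e-07) and -0.48 ± 0.10 for DHRS2 (adjusted p = 0.000368). The difference for DHRS2 was -0.20 ± 0.08 GC corrected (adjusted p = 0.0992), and those of VTN and SERPIND1 kept their calls at -1.48 and -0.73.

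**Figure D1:**
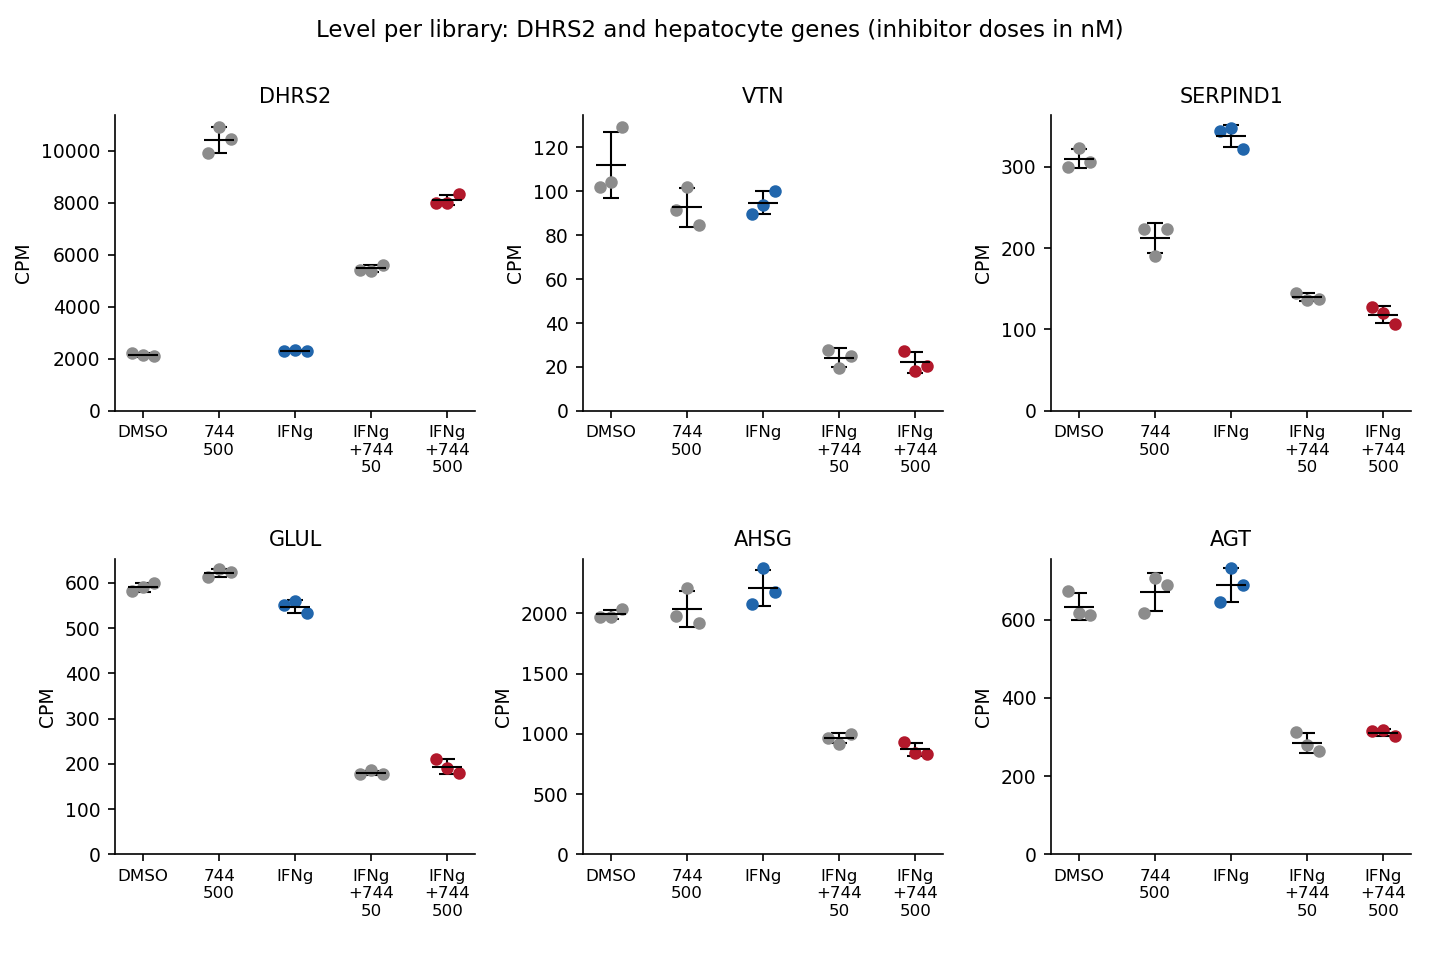
Level (CPM) of DHRS2, VTN, SERPIND1, GLUL, AHSG and AGT in every library of 5 groups; points are libraries and bars mean ± SD (n = 3). VTN averaged 94.7 ± 5.24 CPM with IFNg and 22.1 ± 4.72 CPM in the combination, and DHRS2 2317 ± 34 and 8094 ± 195 CPM.

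Across the 11091 genes tested, 2536 (22.9%) rose and 2534 (22.8%) fell at the adjusted p alone. Past both thresholds were 143 (1.29%) higher and 91 (0.82%) lower genes. The genes past both thresholds that rose were mostly long transcripts rich in A and T, such as BRCA2, whereas those that fell included the liver genes VTN, SERPIND1, GLUL and AKR1D1. Without combination replicate 1, 139 genes were lower past both thresholds.

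Effects followed the base composition of the transcripts. GC content, the share of G and C bases in the longest annotated transcript of a gene, was known for 98.6% of the genes tested, which were split by it into 5 bins of equal size. In the bin with the lowest GC content (29.2% to 40.2%) the median log2 change was 0.63, and in the following bins 0.18, -0.17, -0.28 and -0.20. Of the genes in the lowest bin 66.5% rose, against 4.2% in the highest (57.4% to 86.4% GC). The lowest bin also held 121 of the 143 genes higher past both thresholds. Median GC content was 37.5% for the higher and 54.3% for the lower genes past both thresholds, beside 47.5% for all tested, and median transcript length was 6283.5, 3087 and 3868 bases.

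**Figure D2:**
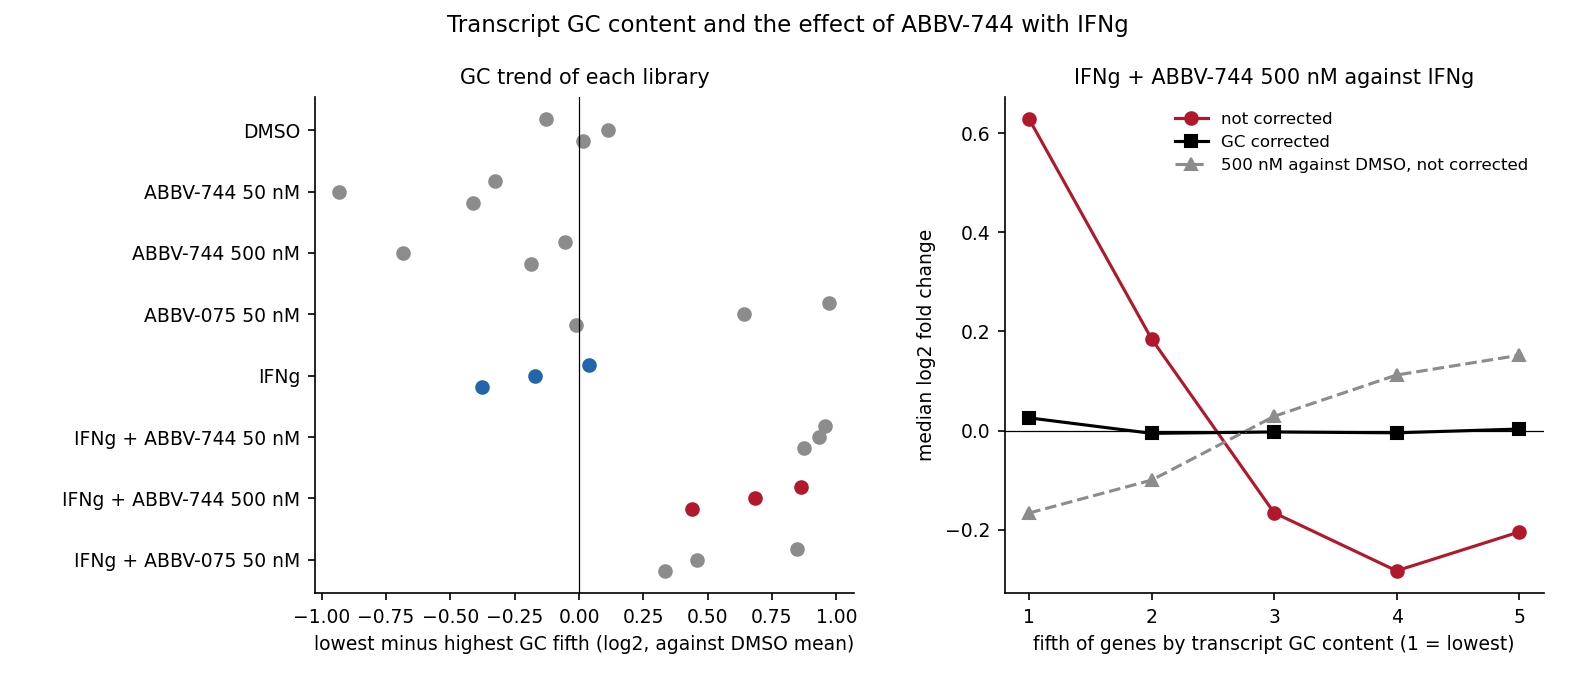
Log2 changes of the combination against IFNg by 5 bins of transcript GC content, and the same trend in each library of the series relative to the mean of the DMSO libraries. The median falls from 0.63 in the lowest bin to -0.28 in the one before the highest, and the combination libraries sit between 0.44 and 0.86 for the lowest minus the highest bin.

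The trend also differed between single libraries. Relative to the mean of the DMSO libraries, the median of the lowest bin minus that of the highest was 0.86, 0.69 and 0.44 in the combination libraries and 0.04, -0.17 and -0.38 in the IFNg libraries. The 2 groups did not overlap, yet combination replicate 1 and IFNg replicate 3 each lay at the outer end of their group. The DMSO libraries spanned -0.13, 0.11 and 0.02, the IFNg libraries with 50 nM ABBV-744 0.95, 0.93 and 0.88, the libraries with 500 nM ABBV-744 alone -0.05, -0.68 and -0.19, and those with 50 nM ABBV-075 alone 0.97, 0.64 and -0.01, a wide span within 1 group. In the effect of ABBV-744 without IFNg the medians ran the other way, from -0.17 in the lowest to 0.15 in the highest bin. Whether the trend arose in the cells or in the preparation of the libraries was not tested.

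A fit with a GC correction, which takes a smooth curve of expression on GC content out of each library, gave the values called "GC corrected" here. It would also remove a change in the cells that follows GC content. In it 1928 (17.4%) genes rose and 2155 (19.4%) fell, with 16 (0.144%) higher and 68 (0.613%) lower past both thresholds. Of the 143 higher genes, 13 remained past both thresholds and 139 still rose, and of the 91 lower genes 49 remained past both and all 91 still fell. Of the 2536 genes that rose, 1310 rose in both fits and 61 fell after correction, and of the 2534 that fell, 1526 fell in both fits and 0 rose. BRCA2, which repairs DNA by homologous recombination (36.4% GC), went from 37.9, 30.5 and 31.1 to 195, 189 and 158 CPM, and its log2 change of 2.42 was 1.70 GC corrected. DHRS2 moved to 2.03 ± 0.07, VTN to -1.88 ± 0.12 and SERPIND1 to -1.31 ± 0.07, all still called.

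**Figure D3:**
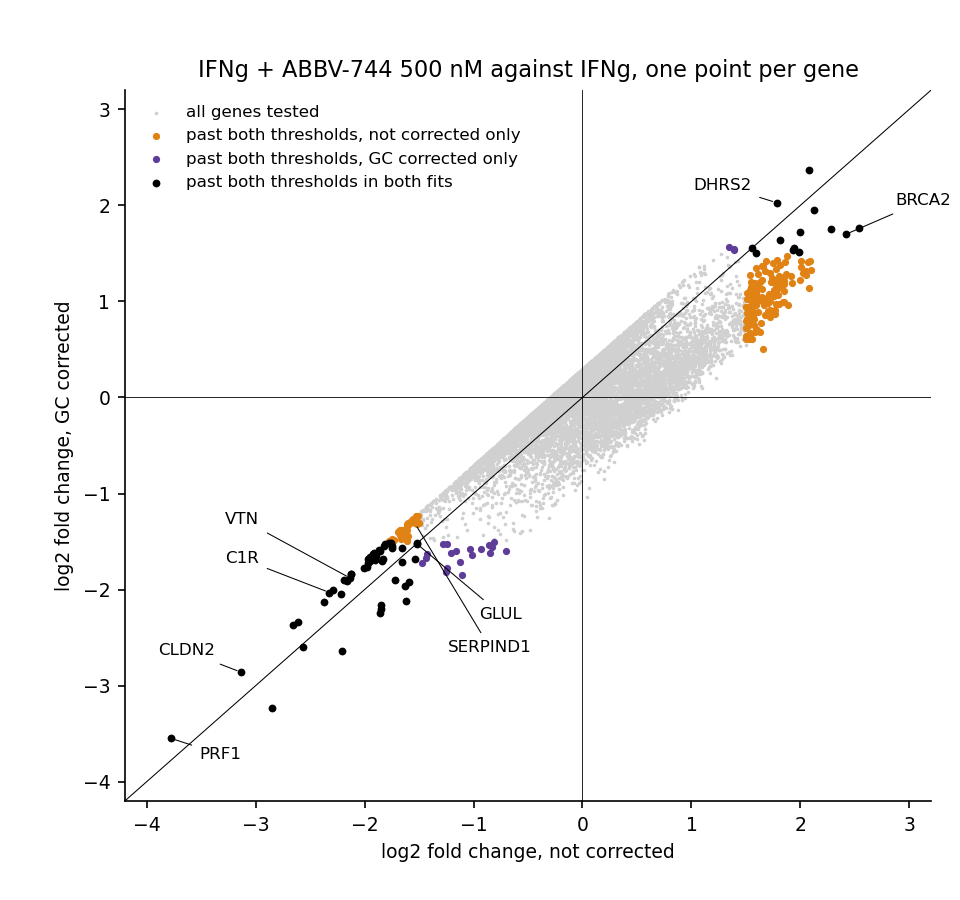
Log2 change of each gene tested in the uncorrected fit against the GC-corrected fit, with named genes marked. DHRS2 lies at 1.78 and 2.03, VTN at -2.13 and -1.88, and BRCA2 at 2.42 and 1.70.

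Promoters are shown for 4 genes with large changes: the riser DHRS2, the secreted-protein genes VTN and SERPIND1, and the IFNg-induced complement gene C1R. The sequences are from RefSeq (GRCh38.p14) and run 5′ to 3′ from 250 bases before to 50 after the annotated start, 300 bases each, at chr14:23629865-23630164, plus strand (DHRS2), chr17:28370258-28370557, minus strand (VTN), chr22:20773863-20774162, plus strand (SERPIND1) and chr12:7092396-7092695, minus strand (C1R). Both strands were searched for TTCNNNGAA (GAS), GAAANNGAA (ISRE-like), CACGTG (E-box) and the TATA box, spelled TATAAA, and capitals mark matches. GAS matches were in 7.88% of all 27305 promoters of this length, ISRE-like matches in 8.29%, E-boxes in 7.43% and TATA boxes in 11.95%. DHRS2, VTN and SERPIND1 each held 1 GAS match, in DHRS2 directly after a TATA box in the same run of capitals, and C1R held no match to any of the 4 motifs in this window. A match is a description of letters and does not show binding.
DHRS2: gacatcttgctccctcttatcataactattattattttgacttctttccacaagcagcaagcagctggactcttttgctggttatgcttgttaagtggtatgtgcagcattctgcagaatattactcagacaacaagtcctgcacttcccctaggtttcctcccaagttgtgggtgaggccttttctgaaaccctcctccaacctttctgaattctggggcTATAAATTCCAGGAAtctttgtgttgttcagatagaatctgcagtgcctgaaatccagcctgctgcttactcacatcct
VTN: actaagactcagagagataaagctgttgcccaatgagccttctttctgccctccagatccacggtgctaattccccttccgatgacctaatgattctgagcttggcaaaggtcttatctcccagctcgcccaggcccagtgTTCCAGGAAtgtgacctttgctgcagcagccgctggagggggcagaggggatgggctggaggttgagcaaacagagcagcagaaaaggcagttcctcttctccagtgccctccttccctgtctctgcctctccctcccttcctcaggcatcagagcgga
SERPIND1: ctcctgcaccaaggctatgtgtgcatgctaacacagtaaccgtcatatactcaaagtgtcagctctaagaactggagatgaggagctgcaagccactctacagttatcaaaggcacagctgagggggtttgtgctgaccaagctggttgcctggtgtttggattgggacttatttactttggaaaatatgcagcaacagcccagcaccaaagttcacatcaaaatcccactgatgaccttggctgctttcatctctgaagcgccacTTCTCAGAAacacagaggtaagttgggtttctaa
C1R: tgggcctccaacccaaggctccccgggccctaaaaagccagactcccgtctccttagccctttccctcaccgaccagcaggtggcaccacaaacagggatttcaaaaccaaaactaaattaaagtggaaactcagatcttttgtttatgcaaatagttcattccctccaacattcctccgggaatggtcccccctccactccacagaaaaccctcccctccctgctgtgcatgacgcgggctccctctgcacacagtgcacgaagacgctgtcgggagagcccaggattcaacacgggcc

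Most clotting genes and most carrier and acute-phase genes tested fell, whereas apolipoprotein B and fibrinogen beta rose. Among clotting factors and their inhibitors, 21 of 34 listed genes were tested, 4 rose and 14 fell (GC corrected 4 and 13). Of all genes tested 22.9% rose and 22.8% fell (GC corrected 17.4% and 19.4%). The median log2 change of the list was -0.62 beside -0.03 for all genes tested (GC corrected -0.48 beside 0.00). After VTN and SERPIND1, the larger falls were those of SERPINC1, the gene of antithrombin, and of F7, clotting factor VII, at -1.25 ± 0.16 and -1.25 ± 0.33. SERPINC1 was at 38.7, 42.6 and 32.2 CPM with IFNg and at 17.4, 14.8 and 16.3 CPM in the combination. A2M, alpha-2-macroglobulin, the member with the highest level per length, went from 4238, 4309 and 4221 to 3015, 2820.4 and 2547 CPM. The groups did not overlap for either gene. FGB, the fibrinogen beta chain, rose by 0.95 (GC corrected 0.63), from 33, 34.9 and 32.8 to 78.9, 60.3 and 58.9 CPM.

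Plasma carriers and acute-phase proteins fell in 18 of 22 tested of 33 listed, and 1 rose (median -0.57, GC corrected -0.35 with 18 falling and 0 rising). These counts stand beside 22.8% falling and 22.9% rising among all genes tested (GC corrected 19.4% and 17.4%). AHSG, fetuin-A, an inhibitor of calcification, was at 2079, 2376 and 2177 CPM with IFNg and at 935, 843 and 836 CPM in the combination. AGT, angiotensinogen, the precursor of the angiotensins, went from 645, 732 and 689 to 315, 317 and 301 CPM. In DMSO and in ABBV-744 alone AHSG was at 1968, 1967 and 2037 and at 1980.5, 2208 and 1923 CPM, so that its combination libraries stood below all 9 others of these 4 groups. The changes were -1.37 ± 0.08 for AHSG and -1.17 ± 0.08 for AGT, and -1.07 and -0.89 GC corrected. Their interactions were -1.39 ± 0.11 (adjusted p = 4.18e-10) and -1.24 ± 0.11 (adjusted p = 4.19e-09), and both were called in both fits. ITIH4, an inter-alpha-trypsin inhibitor heavy chain of low level, had a change of -2.13 ± 0.39, HPX, the haem carrier hemopexin, -0.96 ± 0.22, and SERPINA1, alpha-1-antitrypsin, the highest member per length, -0.56 ± 0.08 (GC corrected -1.84, -0.67 and -0.28). TF, transferrin, the iron carrier, fell by 0.42 (GC corrected -0.68, with a correction for transcript length -0.84), while ALB, albumin, had 0.00 ± 0.10 uncorrected and -0.35 GC corrected.

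Among complement genes and apolipoproteins more fell than rose, beside 22.9% rising and 22.8% falling among all genes tested (GC corrected 17.4% and 19.4%). Of 33 complement genes 18 were tested, 2 rose and 8 fell (GC corrected 1 and 9, median -0.44 and -0.27). The 2 complement genes lower past both thresholds, C1R and C1S, are given with the IFNg-induced genes. Of all genes tested 0.82% were lower past both thresholds (GC corrected 0.613%). C3, the central component, went from 768, 946 and 1011 to 683, 616 and 508 CPM, a change of -0.62 ± 0.10 (GC corrected -0.31) beside 0.42 without IFNg (GC corrected 0.30), and the interaction was -1.01 ± 0.14 (adjusted p = 1.59e-06, GC corrected -0.61). C4BPB and C4BPA, chains of the C4b-binding protein, fell by 1.46 and 1.26, values that are uncertain because the neighbouring genes are similar in sequence. Of 22 apolipoprotein and lipoprotein-assembly genes 16 were tested, 1 rose and 8 fell (GC corrected 3 and 6, median -0.41 and -0.21). APOB, the scaffold of very-low-density lipoprotein and a long transcript, rose from 5821, 6531 and 5303 to 13410, 10242 and 8328 CPM, with combination replicate 1 the highest of the 6 libraries. Its log2 change was 0.83 ± 0.11, 0.73 ± 0.09 GC corrected and 0.46 with a correction for transcript length. APOA5, a regulator of plasma triglycerides, fell by 0.88 and APOH, beta-2-glycoprotein I, by 0.58, whereas APOA1, the main protein of high-density lipoprotein, had 0.17 ± 0.09 (adjusted p = 0.118, GC corrected 0.34).

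In each metabolic list more genes fell than rose, and glutamine synthetase (GLUL), which detoxifies ammonia, fell past both thresholds in both fits. GLUL was at 551, 560.3 and 533 CPM with IFNg and at 211, 192 and 179 CPM in the combination. In DMSO it was at 581, 590.1 and 601 CPM and with ABBV-744 alone at 613, 630.2 and 624 CPM, so the combination libraries were below all 9 libraries of the other 3 groups. Its GC content of 44.7% lies near the middle, and its log2 change was -1.52 ± 0.09 uncorrected and -1.52 ± 0.07 GC corrected. The interaction was -1.58 ± 0.11 (adjusted p = 2.50e-11) and -1.64 ± 0.09 GC corrected (adjusted p = 8.10e-17). Of 34 amino acid and urea cycle genes 25 were tested, 2 rose and 15 fell (GC corrected 2 and 15, median -0.52 and -0.47). For all genes tested the shares were 22.9% rising and 22.8% falling (GC corrected 17.4% and 19.4%). SLC6A9, a glycine transporter, fell by 1.11 (GC corrected -0.87).

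Several bile acid and drug-metabolism genes fell with ABBV-744 whether or not IFNg was present. In the bile acid list 15 of 26 genes were tested, 0 rose and 8 fell (GC corrected 1 and 7, median -0.52 and -0.24). Over all genes tested, 22.9% rose and 22.8% fell (GC corrected 17.4% and 19.4%). AKR1D1, the reductase that shapes the bile acid ring, was at 16.2, 18.5 and 12.5 CPM with IFNg and at 3.34, 1.18 and 2.15 CPM in the combination. It fell by 2.85 with and by 2.16 without IFNg, and the interaction of -0.67 ± 0.50 was not called (adjusted p = 0.321). BAAT, which joins bile acids to amino acids, had -1.85 ± 0.38 with and -2.14 ± 0.41 without IFNg. SLC51B, a subunit of the bile acid exporter, had -2.37 ± 0.29 with IFNg. HSD3B7, an early enzyme of the pathway and the highest per length, had -0.85 ± 0.10 with IFNg. Interactions of SLC51B and HSD3B7 were called uncorrected but not GC corrected (-0.88, adjusted p = 0.18, and -0.19, adjusted p = 0.219). Phase I and II enzymes fell in 13 of 21 tested of 44 listed and rose in 0 (GC corrected 15 and 0, median -0.68 and -0.69). SULT2A1, which sulfates steroids and bile acids, went from 129, 98.1 and 117 to 48.1, 44.1 and 43 CPM, a change of -1.37 ± 0.12 that stood at -1.14 ± 0.12 without IFNg. ADH4, an alcohol dehydrogenase, had -1.86 ± 0.31 with and -2.01 ± 0.32 without IFNg. The values of GSTA1, a glutathione transferase (-1.85 ± 0.34) and CYP4F3, a fatty acid hydroxylase (-1.12 ± 0.24), are uncertain because these genes share sequence with close relatives.

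Among sterol and fatty acid genes more fell than rose. Shares to compare the lists of this paragraph with are 22.9% rising and 22.8% falling of all genes tested (GC corrected 17.4% and 19.4%). Sterol synthesis and SREBP genes rose in 3 and fell in 11 of 27 tested of 28 listed (GC corrected 5 and 12, median -0.21 and -0.15). DHCR7, a reductase late in cholesterol synthesis, went from 87.2, 127 and 111 to 53.5, 56.2 and 47 CPM. Its combination libraries were below all IFNg libraries, for a change of -1.08 ± 0.12 (GC corrected -0.80). FDFT1, squalene synthase, fell by 0.59, whereas SC5D and IDI1, a desaturase and an isomerase of the same pathway, rose by 0.93 and 0.77 (GC corrected 0.25 and 0.44). Among fatty acid and triglyceride genes, 4 rose and 19 fell of 33 tested and 36 listed (GC corrected 3 and 11, median -0.35 and -0.15). PLIN2, the coat protein of lipid droplets, fell by 1.16 (without IFNg by 0.83), CIDEB, a lipid-droplet and lipoprotein protein, by 1.30, and SCD, the stearoyl-CoA desaturase, by 0.41. ACADM, a dehydrogenase of fatty acid oxidation, rose from 31.4, 29.7 and 19.5 to 70.5, 56.8 and 56.2 CPM, by 1.16 ± 0.15 uncorrected and 1.14 ± 0.13 GC corrected. Hepatocyte transcription factors gave no common direction: of 26 tested of 27 listed 2 rose and 6 fell (GC corrected 4 and 3), and the median of -0.10 was 0.02 GC corrected. NR1I2, the drug-sensing receptor PXR, fell by 0.79, HNF4G rose by 0.83 but had 0.08 ± 0.17 GC corrected (adjusted p = 0.739), and CEBPA, the highest per length, had 0.19 ± 0.10 (GC corrected 0.31).

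IRF1 and TAP1, typical IFNg-induced genes, stayed far above their DMSO levels in the combination. Several induced genes, among them TAP1, C1R and C1S, were lower than with IFNg alone. IRF1, an early induced transcription factor, was at 13.6, 10.9 and 11.5 CPM with DMSO, at 208, 225 and 251 CPM with IFNg and at 196, 199 and 226 CPM in the combination (-0.16 ± 0.09, adjusted p = 0.165, GC corrected 0.12). It was called lower with a correction for transcript length (-0.23, adjusted p = 0.033). In the list of the receptor, its kinases and factors 17 of 22 were tested, 4 rose and 7 fell (GC corrected 2 and 5, median -0.17 and -0.14). All genes tested rose in 22.9% and fell in 22.8% (GC corrected 17.4% and 19.4%), so the rises lay near the general share. JAK2, a receptor kinase, and PIAS1, a SUMO ligase that restrains the pathway, rose by 1.28 and 1.30 (GC corrected 0.58 and 0.89), and STAT6, the factor of interleukin-4 signals, fell by 0.91. SOCS3, a feedback inhibitor of low level, had -1.40 ± 0.43 and was not called without combination replicate 3 (-1.12, adjusted p = 0.0617), nor with DESeq2 (-1.39, adjusted p = 0.0756).

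Of 48 further IFNg-induced genes 39 were tested, 3 rose and 21 fell (GC corrected 4 and 22, median -0.47 and -0.52). The same fits had 22.9% of all genes tested rising and 22.8% falling (GC corrected 17.4% and 19.4%). IFNg alone had raised 37 of 39 tested, against 310 (2.76%) of the 11217 genes tested in that comparison. C1R, a protease of the first complement component, was at 3.46, 5.13 and 5.49 CPM with DMSO, at 65.5, 65.8 and 72 CPM with IFNg and at 19.1, 10.6 and 12 CPM in the combination. C1S, its partner protease, was at 25.3, 25.4 and 26.7, then 135, 119.8 and 121 and then 42.4, 38.8 and 43.9 CPM in the same groups. Combination libraries of both genes lay between the other groups, without overlap. The log2 changes were -2.32 ± 0.16 for C1R and -1.61 ± 0.11 for C1S (GC corrected -2.03 and -1.49), and the interactions -2.16 ± 0.38 (adjusted p = 4.74e-05) and -1.02 ± 0.18 (adjusted p = 5.50e-05). IL18BP, which neutralises interleukin-18, went from 26.8, 37.6 and 31.1 to 15.7, 10.4 and 8.9 CPM, a change of -1.48 ± 0.19 (GC corrected -1.19). UBD, a ubiquitin-like protein and the highest of the list per length, fell by 0.60 with and by 0.89 without IFNg, and MLKL, the executor of necroptosis, by 1.32 and 1.44. GBP1, a guanylate-binding protein with close relatives, was at 21.9, 26.7 and 32.2 and 19.1, 21 and 15.3 CPM. Its change of -0.57 ± 0.18 (GC corrected -0.97) was not called without combination replicate 3 (-0.43, adjusted p = 0.0672) or without IFNg replicate 3 (-0.43, adjusted p = 0.0758), nor with DESeq2 (-0.54, adjusted p = 0.0594), and the value is uncertain.

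**Figure D4:**
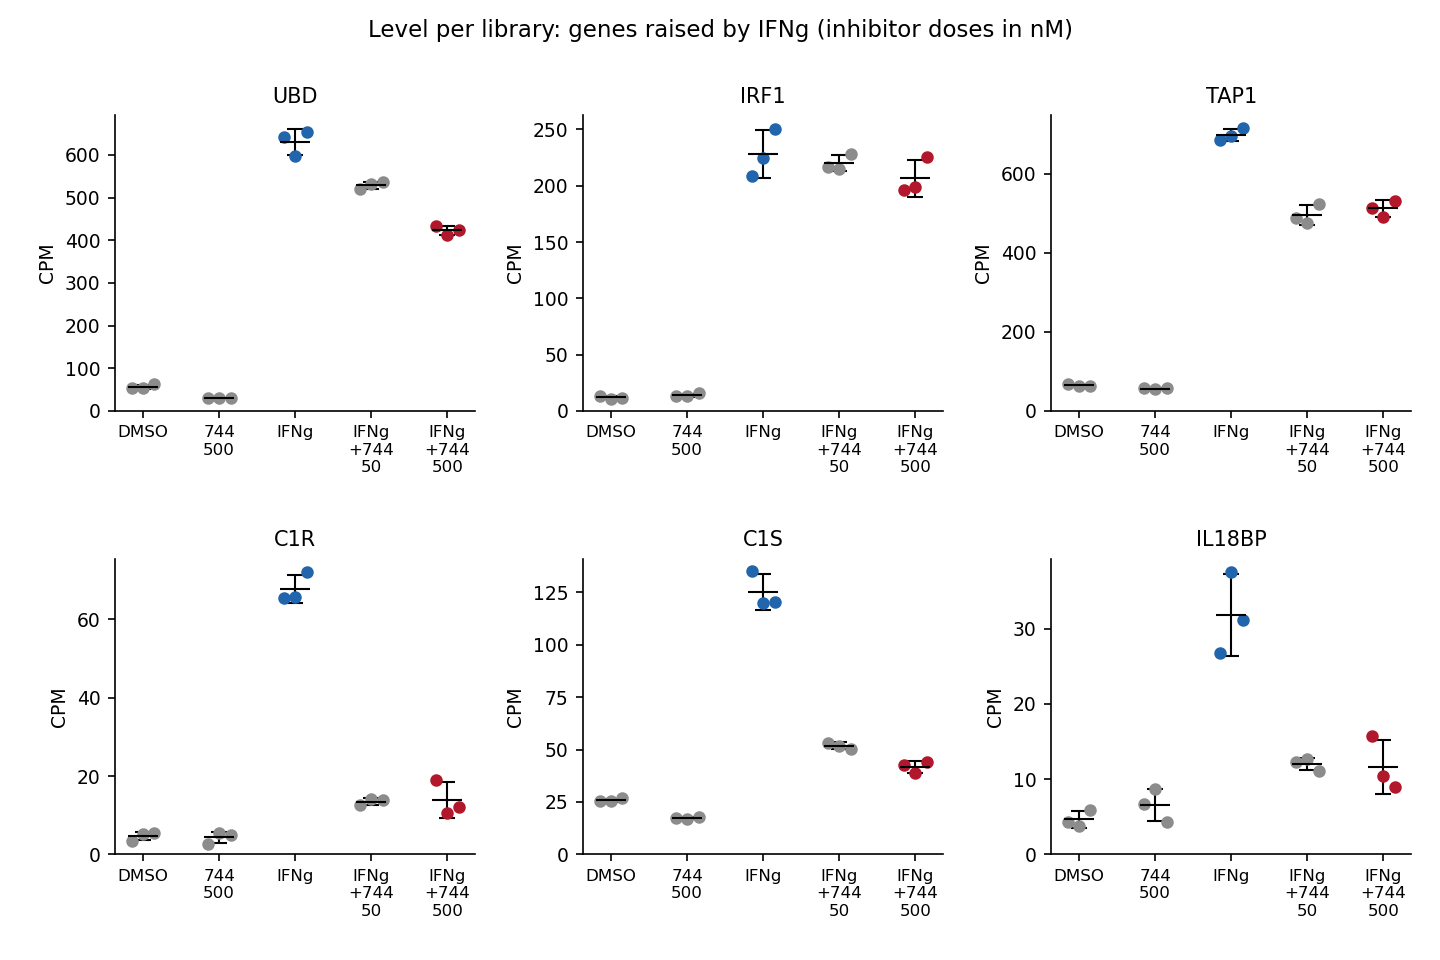
Level (CPM) of UBD, IRF1, TAP1, C1R, C1S and IL18BP in every library of 5 groups; points are libraries and bars mean ± SD (n = 3). C1R averaged 67.8 ± 3.64 CPM with IFNg and 13.9 ± 4.52 CPM in the combination, whereas IRF1 averaged 228 ± 21.3 and 207 ± 16.4 CPM.

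Antigen-presentation genes fell more often than they rose, against 22.8% falling and 22.9% rising among all genes tested (GC corrected 19.4% and 17.4%). In the HLA class I and peptide-loading list 1 rose and 17 fell of 22 tested and 23 listed (GC corrected 1 and 13, median -0.39 and -0.28). TAP1, a subunit of the peptide transporter, went from 684, 694 and 714 to 512, 491 and 532 CPM, and PSMB9, an immunoproteasome subunit, from 138, 152 and 165 to 113, 112 and 119 CPM. Both remained above all DMSO libraries, with changes of -0.47 ± 0.08 and -0.43 ± 0.10 (GC corrected -0.19 and -0.29). PSMB8, TAPBPL and CALR, an immunoproteasome subunit, a peptide editor and a chaperone, fell by 0.67, 0.93 and 0.69 (GC corrected -0.38, -0.65 and -0.41). HLA-B (-0.58 ± 0.09, GC corrected -0.30) is uncertain because HLA genes share reads. Class II presentation was little expressed: 3 of 15 genes were tested, and CTSS (cathepsin S) and IFI30 (a lysosomal thiol reductase) fell by 1.62 and 0.92 (GC corrected -2.12 and -0.63). Antiviral interferon-stimulated genes fell in 15 and rose in 4 of 27 tested of 33 listed (GC corrected 15 and 2, median -0.45 and -0.35). IFITM1, a membrane protein that blocks viral entry, was at 13.5, 10.9 and 8.89 CPM with IFNg and at 2.01, 2.07 and 2.76 CPM in the combination, a change of -2.29 ± 0.32. MX1 and CMPK2, an antiviral GTPase and a nucleotide kinase, fell by 1.47 and 1.22, DDX58, the RNA sensor RIG-I, rose by 1.10 (GC corrected 0.65), and ISG15, the highest per length, had -0.07 ± 0.11 (adjusted p = 0.626).

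HEXIM1 and MYC, whose transcripts are common readouts of BET inhibition, moved in opposite directions. HEXIM1, which holds P-TEFb inactive, went from 47.4, 49 and 44.5 CPM with IFNg to 72.2, 69.2 and 73.1 CPM in the combination, and MYC, the growth-promoting factor, from 107, 118 and 118 to 77.2, 76.6 and 75.8 CPM. Neither gene's groups overlapped, which was so for 52% of all genes tested. The changes were 0.58 ± 0.12 and -0.60 ± 0.10 (GC corrected 0.78 and -0.39), and without IFNg they were 0.74 ± 0.11 and -0.31 ± 0.10. Of 18 BET and P-TEFb genes 17 were tested, 6 rose and 0 fell (GC corrected 7 and 1). Among all genes tested, 22.9% rose and 22.8% fell (GC corrected 17.4% and 19.4%). The list median of 0.14 (GC corrected 0.34) moved to 0.03 without combination replicate 2, and to 0.06 and 0.09 without IFNg replicates 1 and 2. Its lowest value over the settings tried was 0.02. CCNT1 and CCNT2, the cyclins of P-TEFb, rose by 0.72 and 1.05 (GC corrected 0.36 and 0.38), and AFF4, a scaffold of the elongation complex, by 0.64 (GC corrected 0.31, with a length correction 0.35). RN7SK, the RNA that holds P-TEFb with HEXIM1, had -0.22 ± 0.09 (adjusted p = 0.0536, GC corrected 0.04). In the MYC network 1 rose and 4 fell of 12 tested and 14 listed (GC corrected 3 and 1), the median of 0.06 changed sign between settings, and MAX, the partner of MYC, fell by 0.58 but lost its call GC corrected (-0.32, adjusted p = 0.0683).

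Among secreted signals more genes fell than rose, and among metallothioneins more rose than fell. To compare with, 22.9% of all genes tested rose and 22.8% fell (GC corrected 17.4% and 19.4%). Among cytokines, growth factors and their regulators, 1 rose and 11 fell of 22 tested and 36 listed (GC corrected 2 and 12, median -0.47 and -0.47). IL1RN, the antagonist of the interleukin-1 receptor, went from 37.1, 33.2 and 32 to 7.02, 9.17 and 10.1 CPM, and LIF, a cytokine of the interleukin-6 family, from 48.7, 60.8 and 55.3 to 21.4, 21 and 23.3 CPM. The groups were apart for both genes, with changes of -1.97 ± 0.19 and -1.35 ± 0.14, beside -0.90 and -0.99 without IFNg. TNFAIP3, a brake on NF-kB, fell by 0.88, and IL32, a cytokine of high level here, by 0.75 (GC corrected -0.71 and -0.49). Metallothioneins and their partners, which bind zinc and copper, rose in 5 and fell in 0 of 9 tested of 12 listed (median 0.44, GC corrected 0.49 with 5 rising). MT2A was at 102, 85.9 and 97.1 CPM with DMSO, 169.8, 172 and 216 with IFNg and 382, 413 and 396 in the combination, highest there, for a change of 1.07 ± 0.09. MT1E and MT1G rose by 0.66 and 0.56 (MT1G GC corrected 0.84), and all these values are uncertain because the genes are near copies of each other. In the list of TXNIP, arrestins, sestrins and short-chain dehydrogenases, which holds DHRS2, 5 rose and 6 fell of 19 tested and 20 listed (GC corrected 4 and 3, median -0.34 and -0.18), and the median was -0.21 without IFNg replicate 2. Beside the shares of all genes tested, these counts give no direction for the list. TRIB3, a stress-induced pseudokinase, fell by 1.25 with and by 0.78 without IFNg. Of 40 genes that the study names as changed by BET inhibitors, ABBV-075 among them, 6 rose and 27 fell of 35 tested (GC corrected 6 and 26, median -1.20 and -0.98). The study chose them on other libraries of the same cells, so their direction here is not independent.

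Cell-cycle genes are given by list, beside the 22.9% of all genes tested that rose and the 22.8% that fell (17.4% and 19.4% GC corrected). Higher past both thresholds were 1.29% of all genes tested (0.144% GC corrected). Among mitosis genes 12 rose and 7 fell of 26 tested and 26 listed, 6 of them higher past both thresholds (GC corrected 10, 7 and 0, median 0.10 and 0.13). The median was 0.16 without IFNg replicate 2 and 0.05 without IFNg replicate 3. TTK, a kinase of the spindle checkpoint, was at 23.6, 16.7 and 16.4 CPM with IFNg and at 71.9, 71.6 and 56.5 CPM in the combination. CENPF, a kinetochore protein, went from 29, 30.5 and 28.6 to 119.98, 87.6 and 79.2 CPM. Every combination library exceeded every IFNg library for both, while these groups did not overlap for 52% of all genes tested. The changes of TTK and CENPF were 1.79 ± 0.15 and 1.67 ± 0.14 (GC corrected 1.43 and 1.32). Their interactions of 1.81 ± 0.24 and 1.77 ± 0.21 were called in both fits. CENPE, a kinetochore motor, and ASPM, a spindle-pole protein, rose by 2.00 and 1.85 (GC corrected 1.22 and 1.18). AURKA, the mitotic kinase highest per length, fell by 0.36 (GC corrected -0.24, with a length correction -0.22). Replication genes rose in 4 and fell in 9 of 35 tested of 35 listed (GC corrected 4 and 8), with a median that changed sign between settings. The helicase subunits MCM2, MCM5 and MCM7 fell by 0.68, 0.66 and 0.72 (GC corrected -0.40, -0.38 and -0.44). CCNE2, a cyclin of S phase entry, rose by 1.19 but had 0.51 ± 0.25 GC corrected (adjusted p = 0.116). Of 15 G1 cyclins and CDK inhibitors 12 were tested, 3 rose and 3 fell (GC corrected 3 and 2). The pocket protein RB1 and the kinase CDK6 rose by 1.07 and 0.81 (GC corrected 0.40 and 0.35, and 0.48 for CDK6 with a length correction). The inhibitor CDKN1A fell by 0.64 (GC corrected -0.37). In the BCL2 and death list 4 rose and 8 fell of 21 tested and 28 listed (GC corrected 4 and 5, median -0.23 and -0.16), with BMF, a promoter of apoptosis, down at -1.39. The GC corrected counts of this list lay near the shares of all genes tested.

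For the RNA-processing lists the shares of all genes tested to compare with are again 22.9% rising and 22.8% falling, and 17.4% and 19.4% GC corrected. Nucleolar ribosome-biogenesis genes rose in 5 and fell in 13 of 26 tested of 27 listed (GC corrected 5 and 14, median -0.31 and -0.23). PES1, which matures the large ribosomal subunit, went from 102, 99 and 105 to 38.8, 36.7 and 31.3 CPM without overlap, a change of -1.54 ± 0.12 (GC corrected -1.27) with an interaction of -1.25 ± 0.15 (adjusted p = 2.27e-07). NPM1, the nucleolar chaperone nucleophosmin, turned: it rose by 0.37 uncorrected and fell by 0.24 GC corrected (adjusted p = 0.000799 and 0.00284). MALAT1, a nuclear long RNA, rose from 1004, 1049.6 and 1014 to 2566, 2412 and 2263 CPM (1.21 ± 0.08, GC corrected 0.98), and NEAT1, the scaffold of paraspeckles, from 162, 165 and 169 to 277, 299 and 306 CPM (0.81 ± 0.09, GC corrected 0.76, with a length correction 0.37). NEAT1 rose by 0.98 without IFNg too. Of the 18 tested genes in the list of these RNAs and paraspeckle and SR proteins (18 listed), 5 rose and 4 fell (GC corrected 4 and 7). Cytosolic ribosomal protein genes fell in 45 and rose in 3 of 82 tested of 86 listed (GC corrected 32 and 10, median -0.21 and -0.08), with RPS16, of the small subunit, at -0.63 (GC corrected -0.39), though pseudogenes share their sequence, so these values are uncertain. Histone genes, which package DNA and share reads, rose in 16 and fell in 14 of 57 tested of 91 listed (GC corrected 30 and 10), and their median of -0.02 was 0.01 with library-size scaling and 0.20 GC corrected, so no direction is given for the family. Small structured RNAs, which STAR's counts cover only in part because many have copies, rose in 23 and fell in 29 of 160 tested of 491 listed (GC corrected 32 and 33). Their median was 0.00 and changed sign between settings. The files list no gene of the mitochondrial genome by its usual MT- symbols.

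**Figure D5:**
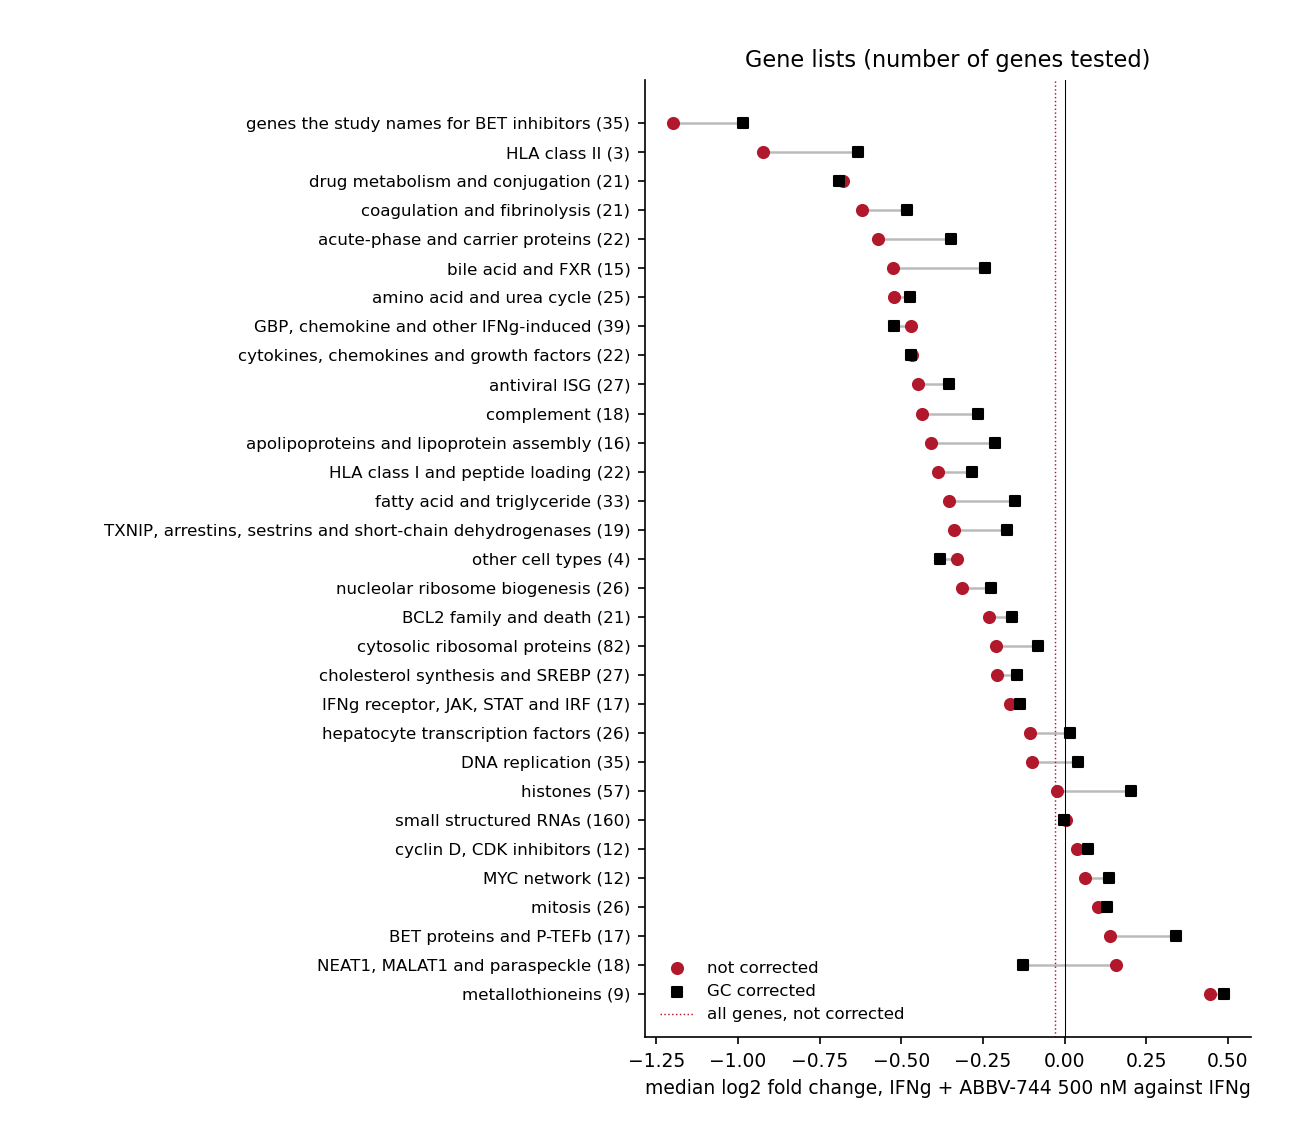
Median log2 change of the genes tested in each gene list, combination against IFNg, in the uncorrected and the GC-corrected fit. The list of 21 clotting genes stands at -0.62 and -0.48, beside -0.03 and 0.00 for all genes tested, and the histone median changes sign between scalings.

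Several of the genes with the largest falls were of low level. CLDN2, a pore-forming protein of tight junctions, was at 11.6, 17.6 and 17.5 CPM with IFNg and at 2.01, 1.18 and 2.15 CPM in the combination, and at 15.2, 11.8 and 15.5 and 2.61, 4.49 and 2.59 CPM in DMSO and with ABBV-744 alone. It was low in all 6 libraries with the inhibitor, at -3.13 ± 0.32 with and -2.13 ± 0.28 without IFNg. SLC17A2, an anion transporter, had -2.56 ± 0.40 and -2.25 ± 0.41 in the same comparisons, SCNN1A, a sodium channel subunit, -2.61 ± 0.53 with IFNg, BHLHA15, a factor of secretory cells, -2.22 ± 0.52, and HS1BP3-IT1, an intronic long RNA, -2.66 ± 0.41. PRF1, perforin, the pore-forming toxin of lymphocytes, had 19, 19 and 27 counts with IFNg and 0, 2 and 2 in the combination, a ratio of 14.6 (95% counting interval 5.45 to 55.3). Its fitted change of -3.78 depends on the prior count (a small count that edgeR adds before logs are taken) and is no bound. Such intervals and the floor of 3 counts cover counting error only. Among those that rose, KIAA1033, a subunit of the WASH complex of endosomes, went from 34.1, 27.3 and 28.6 to 136, 129 and 116 CPM, and CASP8AP2, a partner of caspase-8 and of histone gene transcription, from 17.9, 14.4 and 13.6 to 77.5, 66.6 and 55.6 CPM. Their changes of 2.05 ± 0.12 and 2.09 ± 0.15 came to 1.28 and 1.42 GC corrected. The other large rises were 2.54 for TEX15, a protein of germ-line meiosis, 2.28 and 2.08 for the zinc-finger genes ZNF449 and ZBTB41, 2.12 for the centriole gene CEP128, 2.10 for USP53 of tight junctions and 2.07 for the protease FAM111B (GC corrected 1.77, 1.75, 1.14, 1.95, 1.33 and 1.41). EFR3B, a membrane anchor of a lipid kinase, differed from these with 54.2% GC, rising by 2.07 ± 0.42 with and 1.90 ± 0.33 without IFNg.

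Many genes answered ABBV-744 differently with and without IFNg. VTN, AHSG, GLUL, C1R and PES1 fell mainly or only where IFNg was present, whereas for AKR1D1, BAAT, ADH4 and SULT2A1 no difference was called. The interaction measures this over 12 libraries and carries the GC trend of both effects. Of 11428 genes tested, 2115 (18.5%) were more positive and 1712 (15%) more negative with IFNg, and with library-size scaling the counts were 2292 and 1095. GC corrected they were 866 (7.58%) and 1050 (9.19%), of which 703 and 575 were called in both fits. Without DMSO replicate 2, 1133 genes were more negative. BRCA2 was at 34.8, 36.4 and 40.6 CPM with DMSO and at 45, 23.1 and 40.8 CPM with ABBV-744 alone, so only the combination group stood apart among the 4, with an interaction of 2.46 ± 0.22 (GC corrected 1.55). ZBTB41 had 2.52 ± 0.30 and ZNF230, a zinc-finger gene, 2.88 ± 0.63 (GC corrected 1.35 and 2.17). HERC6 and SAMD9, interferon-induced genes, had 3.27 ± 0.88 and 3.33 ± 1.01, and IFITM1 -4.18 ± 1.28. Each had a group with 3 counts or fewer in all its libraries, so these values depend on the prior count and are no bound. SAMD9 lost its call GC corrected (2.43, adjusted p = 0.106). The call of IFITM1 was lost without replicate 3 of ABBV-744 alone (-3.83, adjusted p = 0.0715). CYP8B1, the enzyme that sets the share of cholic acid, had 10, 16 and 11 counts with IFNg and 0, 0 and 1 in the combination, a ratio of 33.3 (95% counting interval 5.62 to 1351). SULT1C4, a sulfotransferase, had 19, 12 and 8 and 0, 1 and 0 counts, a ratio of 35.1 (95% counting interval 5.94 to 1422), and PDGFB, a platelet-derived growth factor, 16, 11 and 10 and 0, 1 and 1, a ratio of 16.7 (95% counting interval 4.3 to 143). Their interactions of -3.71, -3.67 and -3.06 are no bounds either: CYP8B1 came to -2.90 (adjusted p = 0.059) without replicate 3 of ABBV-744 alone and -5.70 without combination replicate 3, and SULT1C4 to -5.66 without combination replicate 2. In the gene lists, the interaction was more negative in 13 of 25 tested carrier and acute-phase genes and 11 of 23 clotting genes (medians -0.47 and -0.53, beside -0.09 for all genes), and GC corrected in 8 and 9.

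With IFNg in both groups, the step from 50 nM to 500 nM ABBV-744 raised DHRS2 further. VTN, SERPIND1, GLUL and C1R stood near their lower level already at 50 nM. DHRS2 was at 5433, 5366 and 5624 CPM at 50 nM, between the IFNg libraries and those at 500 nM (7972, 7991 and 8319 CPM), and the difference was 0.59 ± 0.08 (adjusted p = 2.90e-05, GC corrected 0.57). HEXIM1 stood at 55.3, 38.7 and 54.5 CPM at 50 nM and 72.2, 69.2 and 73.1 CPM at 500 nM, and SULT2A1 at 65.6, 75.9 and 65.3 and 48.1, 44.1 and 43 CPM. The differences of HEXIM1 and SULT2A1 were 0.55 ± 0.12 and -0.59 ± 0.11, both called with and without the GC correction. Both calls were lost in a fit of all 24 libraries (HEXIM1 0.53, adjusted p = 0.109, and SULT2A1 -0.61, adjusted p = 0.109), and that of HEXIM1 also without 50 nM replicate 2 (0.41, adjusted p = 0.0945). VTN was at 27.9, 19.5 and 25.2 CPM, and the dose differences of VTN, SERPIND1, GLUL and C1R, -0.12 ± 0.17, -0.21 ± 0.09, 0.13 ± 0.08 and 0.06 ± 0.21, were not called (adjusted p = 0.797, 0.259, 0.479 and 0.925), which does not show that they are equal. Of 11022 genes tested, 155 (1.41%) were higher and 32 (0.29%) lower at 500 nM, and GC corrected 86 (0.78%) and 10 (0.0907%), with 82 and 9 called in both fits. With library-size scaling the counts were 76 and 92. Leaving out combination replicates 1, 2 and 3 in turn gave 334, 59 and 81 higher and 139, 5 and 14 lower genes, and leaving out the 50 nM replicates 96, 78 and 85 and 9, 10 and 12. Small structured RNAs made up 51 of the higher genes (156 tested) and histones 24 (55 tested), 45 and 17 GC corrected. Against IFNg alone, the small RNAs fell at 50 nM in 73 and rose in 1 of 159 tested (GC corrected 61 and 0, median -0.37 and -0.38), while at 500 nM they rose in 23 and fell in 29 (median 0.00). Histones fell at 50 nM in 29 and rose in 4 of 56 tested, but GC corrected in 13 and 11 (median -0.23 and 0.00). All genes fell there in 2706 and rose in 3060 of 11150 tested, and GC corrected in 2022 and 1821. RNY1, a small RNA of Ro particles, was at 79.1, 56.2 and 73.9 CPM at 50 nM and at 76.2, 176 and 199.8 CPM at 500 nM, where replicate 1 was the lowest, and SNORD89, which guides RNA methylation, at 8.89, 7.91 and 11.1 and 11.7, 34.3 and 24.9 CPM. The call of RNY1 was lost with DESeq2 (1.15, adjusted p = 0.16), that of SNORD89 without combination replicate 2 (1.02, adjusted p = 0.0626), and those of both in a fit of all 24 libraries (1.11, adjusted p = 0.18, and 1.36, adjusted p = 0.153). Lower at 500 nM were FAS, a death receptor (-0.75 ± 0.16), and GLIPR1, a secreted CAP-domain protein (-1.07 ± 0.23). Without combination replicate 2 the call of FAS was lost (-0.73, adjusted p = 0.0626) and so was that of GLIPR1 (-1.01, adjusted p = 0.0734), which was also lost without 50 nM replicate 3 (-0.93, adjusted p = 0.0723). FAS was also not called in a fit of all 24 libraries (-0.78, adjusted p = 0.16), nor GLIPR1 with both strands together (-0.80, adjusted p = 0.0878).

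Side by side, the other inhibitor treatments gave the following values. Those with IFNg use the same IFNg libraries as control, so their likeness is no independent support. At 50 nM with IFNg, 216 genes were higher and 41 lower past both thresholds (18 and 34 GC corrected), and with ABBV-075 at 50 nM and IFNg 270 and 420 (132 and 374). ABBV-744 at 500 nM without IFNg, against DMSO, had 3 and 35 (3 and 37). The log2 changes with IFNg, in the order ABBV-744 at 500 nM, at 50 nM and ABBV-075 at 50 nM, were 1.78, 1.25 and 2.66 for DHRS2, -2.13, -1.95 and -2.30 for VTN and -1.54, -1.26 and -2.01 for SERPIND1. DHRS2 was at 14054, 15269.6 and 15062 CPM with ABBV-075 and IFNg, above every library of the other groups given here. For GLUL they were -1.52, -1.59 and -1.19, for AHSG -1.37, -1.19 and -1.39, for C1R -2.32, -2.32 and -3.13, for IRF1 -0.16, -0.04 and -0.04 and for BRCA2 2.42, 2.50 and 2.41. The median over clotting genes was -0.62, -0.55 and -1.08, and over the further IFNg-induced genes -0.47, -0.25 and -1.23. Doses of the 2 inhibitors differ, and no difference between them was tested.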

How the data were processed

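The deposited files hold raw counts per gene symbol for each of 24 libraries, which the authors made with CASAVA 1.8.2, Trimmomatic 0.33 and STAR 2.7.1 against hg38, and they name DESeq2 for their own tests. Which annotation they counted on is not given. Column 4, the strand of the gene, was used. Reads that STAR did not assign to a gene stayed out: of 23037861 to 28925049 reads per library over the series, 56 to 69.4% aligned to several places, 14.8 to 25.3% to no gene, 0.81 to 1.01% to more than 1 gene, and 1.93 to 2.98% not at all. Between 2978982 and 4304103 reads per library were on genes (12 to 16.8%), so genes of few CPM rest on few counts. The 10 most abundant genes took 26.7 to 27.1% of them in the IFNg and 24.7 to 29% in the combination libraries. R 4.3.3 with edgeR 4.0.16 was used for TMM scaling, the filterByExpr filter, edgeR's quasi-likelihood test on each set of libraries and Benjamini-Hochberg adjustment. Fitted changes used edgeR's default prior count, and the log2 CPM of the GC curve a prior count of 2. Standard errors are the log2 change divided by the root of F. Python 3.11.15 with numpy 2.4.6, pandas 2.3.3, scipy 1.17.1 and matplotlib 3.10.9 made tables and figures, and the code was tested on simulated data. With 3 against 3 libraries the smallest exact permutation p is 0.1, so the model's test was used. The GC correction fits, per library, a lowess curve (span 0.3) of its deviations from the mean of all libraries (log2 CPM) on GC content in the longest GENCODE 44 transcript and enters it as an offset. Of 26475 symbols, 23161 matched that annotation by symbol, 1370 by synonym and 1944 not. Alternatives tried were DESeq2 1.42.0, RLE and library-size scaling, other filters, all 24 libraries in the fit, a replicate block, each library left out, GC and length corrections, both strands together, leaving out the 10 most abundant genes, and thinning to equal size. The members and the 32 gene lists were chosen with earlier results of these data known. 193 genes could be named: check genes, the markers, and list members with the largest changes and highest levels per length. With them came the 5 largest interaction and dose effects in each direction, and the 10 largest changes past both thresholds in each direction. The latter came from genes with a mean log2 CPM of 1 or more and no overlap between combination and IFNg libraries. Their lack of overlap was thus fixed by the choice. The rule also allowed genes chosen after their values were seen. Error bars in figures are the SD over 3 libraries.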

Additional observations from a re-analysis of the deposited data

Results flagged for a closer look

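The test of the difference between the effects of ABBV-744 with and without IFNg was made for 182 named genes, of which 114 differed at the adjusted p and 71 differed with the same sign in both fits. Of all 11428 genes tested, 2115 (18.5%) were more positive and 1712 (15%) more negative, 703 and 575 of them in both fits. Named genes were partly chosen for large changes and interactions, so their counts do not show how common such differences are. The named genes listed here differed by at least 1.5 (log2) in both fits. More positive with IFNg were BRCA2 (2.462, GC corrected 1.548), ZNF449 (2.22, 1.521), CEP128 (2.091, 1.806), ZNF230 (2.877, 2.166), HERC6 (3.274, 3.351), the small nucleolar RNA SNORA78 (1.627, 1.769) and MTRNR2L1 (1.69, 1.694), a copy of mitochondrial sequence and uncertain for that reason. The call of SNORA78 was lost without any 1 of combination replicates 1, 2 and 3, IFNg replicates 1 and 3, and replicates 1 and 3 of both ABBV-744 alone and DMSO (1.34 to 1.69, adjusted p = 0.0514 to 0.113), and that of MTRNR2L1 with DESeq2 (1.69, adjusted p = 0.0547). More negative with IFNg were C1R (-2.163, GC corrected -1.779), IL18BP (-1.936, -1.551), GLUL (-1.581, -1.641), PRF1 (-3.245, -2.896), IFITM1 (-4.181, -3.815), CYP8B1 (-3.707, -3.432), SULT1C4 (-3.669, -3.848) and PDGFB (-3.061, -2.74). The values of HERC6, PRF1, IFITM1, CYP8B1, SULT1C4 and PDGFB depend on the prior count, because a group of each had 3 counts or fewer in all libraries. The cause of these differences was not tested.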

How the results depend on the processing

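Counts of genes past both thresholds depended on the GC correction more than on scaling. The 143 higher genes were 16 GC corrected, 16 GC corrected with the replicate block and 91 with a length correction, and 125 to 203 with 1 library left out. The 91 lower genes were 189 without a filter on low counts, 40 with at least 10 counts in every library and 99 to 139 with 1 library left out, the highest without combination replicate 1. At the adjusted p alone no setting moved the counts by more than 1.5 times. The median of the lowest minus the highest GC bin, 0.8327, was 0.02253 GC corrected, 0.02076 with the replicate block added and 0.7182 to 0.9627 with 1 library left out.

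The interaction counts (2115 more positive, 1712 more negative) were 866 and 1050 GC corrected and 824 and 993 with the replicate block added. Library-size scaling gave 2292 and 1095, and leaving out 1 library 1775 to 2308 and 1133 to 1767, lowest for the negative genes without DMSO replicate 2 (1133). The dose counts (155 higher, 32 lower at 500 nM) were 80 and 15 with DESeq2, 76 and 92 with library-size scaling, 1 and 1 in a fit of all 24 libraries, 86 and 10 GC corrected, and 59 to 334 and 5 to 139 with 1 library left out. A length correction left 98 higher genes, no filter on low counts gave 51 lower genes and thinning 20. The dose counts are thus the least stable of those given.

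Whether replicate numbers pair the libraries was not settled. Combination and IFNg libraries of the same number correlated at 0.153, 0.00281 and 0.153 in their deviations from the group means. Libraries of different number correlated at -0.167 to 0.0165, and combination replicate 2 correlated best with IFNg replicate 1 (0.015). With the replicate block, 143 genes were higher and 90 lower past both thresholds, 2716 and 2809 at the adjusted p alone, 2106 and 1631 in the interaction, and 209 and 58 in the dose comparison. GC corrected, the replicate block gave 123 higher and 22 lower genes between doses. Of these, only the counts of lower genes between doses moved by more than 1.5 times, and 176 of 179 named genes kept their call and sign, with 2 gaining a call and 0 losing it.

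Of 179 named genes tested, 146 kept their call and sign after GC correction, 17 lost a call, 6 gained it and 10 changed sign. The changed signs, given GC corrected and then with the replicate block added, were IRF1 0.1159 and 0.1155, RN7SK 0.04436 and 0.0452, ISG15 0.1043 and 0.1045, NPM1 -0.2412 and -0.2405, the histone gene HIST1H3B 0.1744 and 0.1781, RPS2 0.1924 and 0.1933, COX10-AS1 -0.5878 and -0.5983, ALB -0.3473 and -0.348, and the keratins KRT8 0.04315 and 0.04129 and KRT18 0.03702 and 0.03501. Only NPM1, KRT8 and KRT18 of these had been called uncorrected. With a length correction the sign changed for ISG15 (0.1001), NQO1 (0.05223), HIST1H3B (0.01587), RPS2 (0.07966), LYZ (0.04219), COX10-AS1 (-0.1099), HNF4A (-0.02846) and EPCAM (0.1235).

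Values near 0 also turned elsewhere. COX10-AS1 was -0.002105 with at least 10 counts in every library, -0.003265 with the replicate block, -0.1973 with both strands together, -0.01445 thinned, and -0.218, -0.1044 and -0.04555 without combination replicate 3, IFNg replicate 1 and IFNg replicate 3. Over the fits with 1 library left out it ranged from -0.218 to 0.1927. ALB was -0.002684 with at least 10 counts in every library, -0.0006747 with both strands together, and -0.1108 and -0.1176 without combination replicate 1 and IFNg replicate 3. Its range with 1 library left out was -0.1176 to 0.1422. FAS was 0.01548 and HNF4A -0.004133 without IFNg replicate 1, and EPCAM 0.003095 without combination replicate 3. Their ranges with 1 library left out were -0.2367 to 0.01548, -0.004133 to 0.08641 and -0.07006 to 0.003095. With 1 library left out, 1010 of 1074 values of named genes kept call and sign, 46 lost a call, 10 gained it and 8 changed sign.

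The study calls the samples it reports, DMSO among them, independent, and says nothing of the 2 groups compared here. With 3 libraries per group, p-values describe the spread between libraries and need not extend to new cultures. Bulk RNA levels show neither transcription rates nor protein. The GC trend differs between libraries of 1 group, so uncorrected effects of genes poor in G and C are less certain, and the GC correction can remove changes that arose in the cells. The IFNg dose and the treatment time of the groups with ABBV-744 or IFNg are not known here, and the cause of the trend was not tested.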
